A study of Mus musculus with 8 samples.

Results

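The 60 genes described here are protein-coding genes that lie on either side of Btg2 on mouse chromosome 1, with Btg2 itself left out. They are listed neighbours of Btg2, given in their order along the chromosome. An array probe was assigned to a gene if its accession mapped to it in the RefSeq gene table. The list was made with earlier results of these data known, and position alone does not define it. Of the 60, 34 lie before Btg2 and 26 after it. The first, Ikbke, is 42 protein-coding genes before Btg2, and the last, Kif21b, is 39 after it. The stretch between them holds 81 protein-coding genes besides Btg2, of which 21 are not among the 60. A probe was found for 58 of the 60 genes (Lemd1 and Prelp had none), and 50 were bright enough to be tested, of 14578 genes tested on the array.

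Liver RNA was compared between Btg2-knockout (KO; the gene is also called TIS21) and wild-type (WT) C57BL/6J mice in adult and fetal samples. The adult KO and adult WT samples were taken from males at 10 weeks of age, after a fast of 20 h. The fetal KO and fetal WT samples were pools of livers from several fetuses of embryonic day 13.5, of both sexes. Each of the 4 RNA samples was measured on 2 arrays as technical duplicates. All p-values below therefore measure array error between single RNA samples, and animals were not replicated. The number of adult mice behind a sample, the part of Btg2 that was removed and the origin of the targeted cells are not given in the sources used here. Because whole liver was sampled, fewer cells of a type and less RNA per cell cannot be told apart.

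Btg2 encodes a growth-restraining protein of the BTG/TOB family that binds the deadenylase complex which shortens mRNA tails. A gene targeted in embryonic stem cells is inherited together with the chromosome segment around it, and genes in that segment are therefore often looked at beside the targeted gene. The segment around Btg2 holds genes of unrelated function. Among them are the proteases cathepsin E and renin, the peptide hormone gene Kiss1, the muscle transcription factor myogenin, the desmosome gene Pkp1 and 2 genes of the chitinase family. No sequence of the KO mice was read here, so which alleles these neighbours carried is not known from these data.

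Signals are given as scaled signal, on which the 75th percentile of each array is 100, and were compared within a probe only. Differences are KO minus WT on the log2 scale, each with its standard error (SE) from the limma fit and 2 arrays in either group. A gene was called if its adjusted p was under 0.05 over all genes tested and its fitted difference was at least 2-fold. Groups not well above background were fitted too. Where only 1 group was so dim, a bound is given, which can lie under 2-fold (Slc41a1 in adult and Elf3 in fetal liver). Before scaling, adult arrays had a 75th percentile of 132 to 171 and fetal arrays one of 278 to 334. Duplicate arrays correlated at r of 0.992 to 0.997. Of the 50 genes tested, 37 were well above background on all 4 adult arrays and 46 on all 4 fetal arrays. Btg2 had scaled signals of 4.19 and 5.47 in adult KO, not well above background, against 129 and 137 in adult WT (at least 7.63-fold lower in KO, adjusted p = 7.1e-07, limma). In the fetal pools it had 1.89 and 2.13 in KO, again not well above background, against 722 and 750 in WT (at least 99.1-fold lower in KO, adjusted p = 8.1e-07, limma). No KO array went against its label, although whether the probe lies in the removed part is not known here.

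The regulatory sequence upstream of 4 of these genes is shown for the members whose measured differences were the largest among those with a RefSeq promoter entry: the adult fall (Kiss1), the adult rise (Ipo9) and the first 2 fetal rises (Phlda3 and Chil1). Entries were found for 54 of the 60 genes, but not for Ctse, Pm20d1 or Pkp1. Each line gives the 250 bases before the annotated start, 5′ to 3′ on the gene's own strand, from RefSeq on GRCm38.p6. Kiss1 is at chr1:133326962-133327211 on the plus strand, Ipo9 at chr1:135430500-135430749 on the minus strand, Phlda3 at chr1:135765835-135766084 on the plus strand and Chil1 at chr1:134181906-134182155 on the plus strand. For Ipo9, which has 2 entries, the first is shown. Capitals mark matches on either strand to TATAAA (in 12.4% of 32851 mouse promoters of the same length), CCAAT (33.8%), GGGCGG (32.7%) and CACGTG (6.02%).
Kiss1: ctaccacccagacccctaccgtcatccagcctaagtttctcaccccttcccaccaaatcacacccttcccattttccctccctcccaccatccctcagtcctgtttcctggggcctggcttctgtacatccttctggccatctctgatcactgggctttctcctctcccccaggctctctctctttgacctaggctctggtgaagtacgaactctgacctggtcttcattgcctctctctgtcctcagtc
Ipo9: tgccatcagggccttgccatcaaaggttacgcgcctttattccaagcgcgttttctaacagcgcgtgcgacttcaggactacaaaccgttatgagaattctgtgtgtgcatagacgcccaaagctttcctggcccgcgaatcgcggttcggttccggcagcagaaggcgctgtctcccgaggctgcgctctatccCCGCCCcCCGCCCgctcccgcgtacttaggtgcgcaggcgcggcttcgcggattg
Phlda3: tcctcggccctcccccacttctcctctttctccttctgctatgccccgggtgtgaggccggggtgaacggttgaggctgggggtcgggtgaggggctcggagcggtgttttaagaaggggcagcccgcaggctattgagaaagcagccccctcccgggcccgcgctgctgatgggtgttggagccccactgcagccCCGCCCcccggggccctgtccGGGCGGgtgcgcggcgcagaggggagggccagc
Chil1: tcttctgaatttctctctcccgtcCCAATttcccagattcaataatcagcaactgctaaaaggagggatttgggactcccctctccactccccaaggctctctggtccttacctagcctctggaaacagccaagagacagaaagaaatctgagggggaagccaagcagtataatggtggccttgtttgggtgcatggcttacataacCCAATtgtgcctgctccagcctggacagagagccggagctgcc
The Kiss1 window held none of the 4 motifs, Ipo9 and Phlda3 each held 2 matches to GGGCGG, and Chil1 held 2 matches to CCAAT. The GC content was 55.6% for Kiss1, 60.8% for Ipo9, 71.2% for Phlda3 and 51.6% for Chil1. These letters are those of the reference genome, not of the mice studied.

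In fasted adult liver, 12 of the 50 flanking genes tested (24%) were called between KO and WT, against 7.50% of all genes tested. Of these, 8 were higher in KO (4.97% of all genes) and 4 were lower (2.53% of all genes). With each array scaled to its median, 8 were higher and 2 lower, while over all genes 1058 were higher and 299 lower, against 724 and 369 here. In 10 of the 12, at least 1 of the groups was well above background (6.48% of all genes met both conditions). With normexp background correction, which adds an offset to every signal, the adult calls of Ctse, Pm20d1 and Kiss1 were kept and the other 9 were lost. In fetal liver, 7 of the 50 (14%) were called, against 1.87% of all genes. There, 4 were higher in KO (0.453% of all genes) and 3 were lower (1.41% of all genes), and all 7 were well above background in a group (1.75% of all genes were called and so). The median difference over the 50 genes was -0.20 in adult and 0.09 in fetal liver, beside -0.10 and 0.0041 over all genes tested. With each array scaled to its median, the adult median was 0.0013 over the 50 genes and 0.095 over all genes, so both signs turned. Regardless of sign, the median size was 0.47 in adult and 0.23 in fetal liver, beside 0.30 and 0.13 over all genes. Among 15 tested genes of the stretch outside the list, 1 was called in adult liver (6.67%). In fetal liver limma called 0 of those 15, and 4 had an unadjusted p under 0.05.

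**Figure D1:**
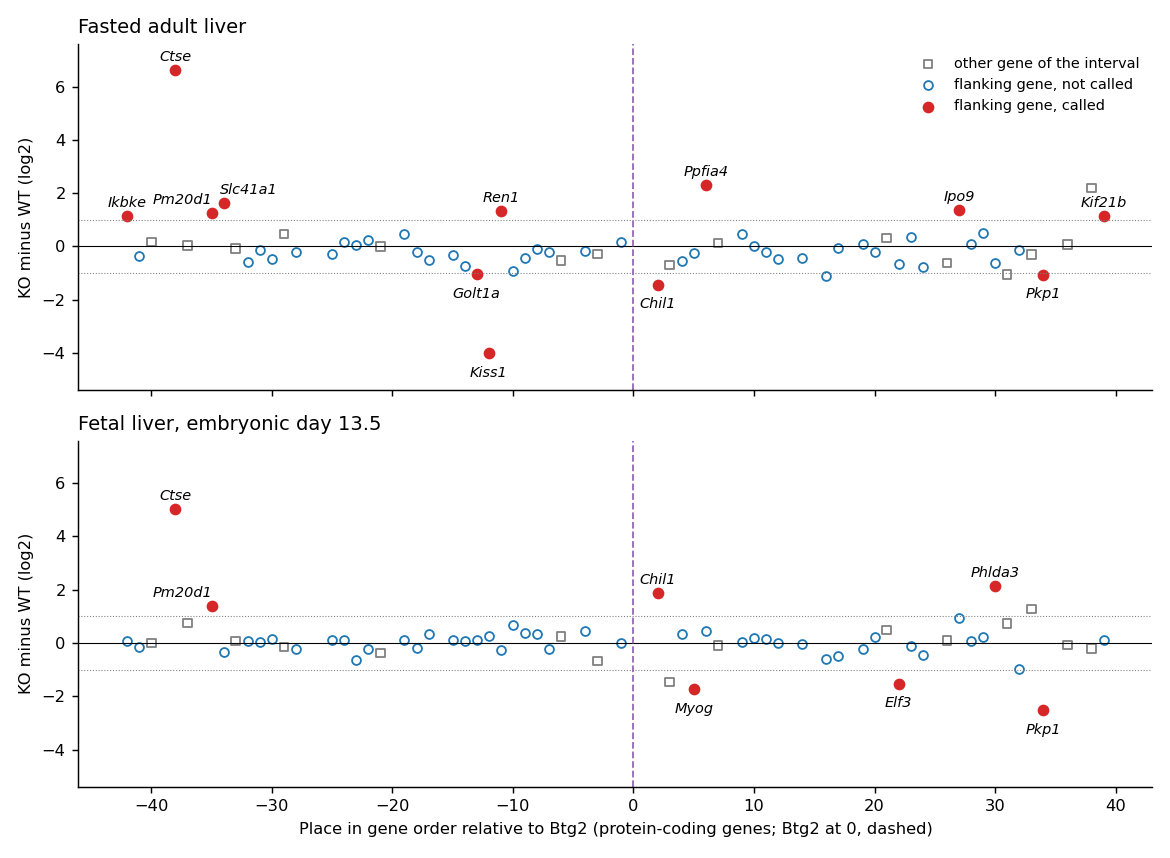
KO minus WT difference (log2) of the tested genes between the first and the last of the 60, by the number of protein-coding genes from Btg2, in fasted adult liver (top) and fetal liver (bottom). Ctse stands highest at both stages. Points are fitted values, and for some called genes only the direction and a bound are measured. In adult liver, with WT not well above background, these are Ctse (at least 32.3-fold higher in KO), Ppfia4 (3.06-fold) and Slc41a1 (1.31-fold). Cacna1s, outside the list, is another (at least 2.40-fold higher, grey square at the right of the adult panel). In fetal liver it is Elf3 (at least 1.89-fold lower in KO). For the adult points of Chil1 and Pkp1 no array was well above background, so no size is measured.

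The proteases, peptide hormones and peptidases had 4 of 5 called in adult liver (3 higher, 1 lower), against 7.50% of all genes. In fetal liver 2 of 5 were called (both higher), against 1.87% of all genes. The role groups were made with earlier results of these data known, so these counts only describe the group. For the role groups and marker lists below, the shares called over all genes are the same 7.50% in adult and 1.87% in fetal liver. Ctse encodes cathepsin E, an aspartic protease of endosomes. It had scaled signals of 661 and 668 in adult KO, against 6.97 and 6.64 in adult WT, where it was not well above background. In the fetal pools it had 2961 and 3081 in KO, against 85.6 and 99.6 in WT. Ctse was thus bright on all 4 KO arrays and dim or low on all 4 WT arrays, with no overlap at either stage. It was at least 32.3-fold higher in adult KO (adjusted p = 1.6e-08, limma). In the fetal comparison, where both groups were measured, it differed by 5.03 ± 0.08 (adjusted p = 3.3e-07, limma), rank 1 among the fitted rises of all genes. Both stages kept the call under all alternatives in which Ctse was tested.

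Pm20d1 encodes a secreted peptidase that forms and cleaves N-acyl amino acids. Its scaled signals were 1737 and 1952 in adult KO, against 808 and 753 in adult WT. In fetal liver they were 99.7 and 103 in KO, against 37.7 and 41.0 in WT. The KO arrays were higher at both stages without overlap, by 1.24 ± 0.07 in adult liver (adjusted p = 8.0e-06) and 1.37 ± 0.07 in fetal liver (adjusted p = 1.3e-04; both limma). The differences at the 2 stages did not pass the test against each other (-0.13 ± 0.10, adult minus fetal, adjusted p = 0.33, limma).

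Kiss1 encodes the precursor of kisspeptin, a peptide best known for driving the neurons that release gonadotropin-releasing hormone. It had scaled signals of 27.4 and 43.8 in adult KO, against 604 and 516 in adult WT, and both WT arrays stood far above both KO arrays. The adult difference was -4.01 ± 0.23 (adjusted p = 6.7e-06, limma), rank 5 among the fitted falls of all genes, and a further Kiss1 probe gave -4.70. In fetal liver the probe read 31.9 and 33.7 in KO, against 31.4 and 24.1 in WT. The fetal difference of 0.26 ± 0.23 was not called (adjusted p = 0.49, limma), and the further probe had the opposite sign there (-0.53).

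Ren1 encodes renin, the protease that cuts angiotensinogen. It read 82.6 and 89.0 in adult KO, against 29.5 and 38.9 in adult WT, higher in KO without overlap (1.34 ± 0.17, adjusted p = 3.8e-04, limma). Fetal scaled signals of Ren1 were 11.4 and 12.7 in KO, against 14.9 and 14.1 in WT, a difference of -0.27 ± 0.17 that was not called (adjusted p = 0.32, limma). Some mouse strains carry Ren2, a near-identical copy of renin beside Ren1. C57BL/6 mice are known to carry Ren1 alone, and in the gene table Ren2 sits on an alternate scaffold with no place in the gene order. The probe named for Ren2 read 694 and 716 in adult KO, against 19.6 and 21.0 in adult WT, where it was not well above background (at least 34.2-fold higher in KO, adjusted p = 3.3e-07, limma). In the fetal pools the order was the other way: 34.5 and 32.1 in KO, against 95.7 and 132 in WT (-1.76 ± 0.15, adjusted p = 6.5e-04, limma). Because the copies share sequence, which of them each probe measured is uncertain. Rnpep, an aminopeptidase, had an adult difference of 0.34 ± 0.04 and a fetal one of -0.13 ± 0.04, both under 2-fold.

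**Figure D2:**
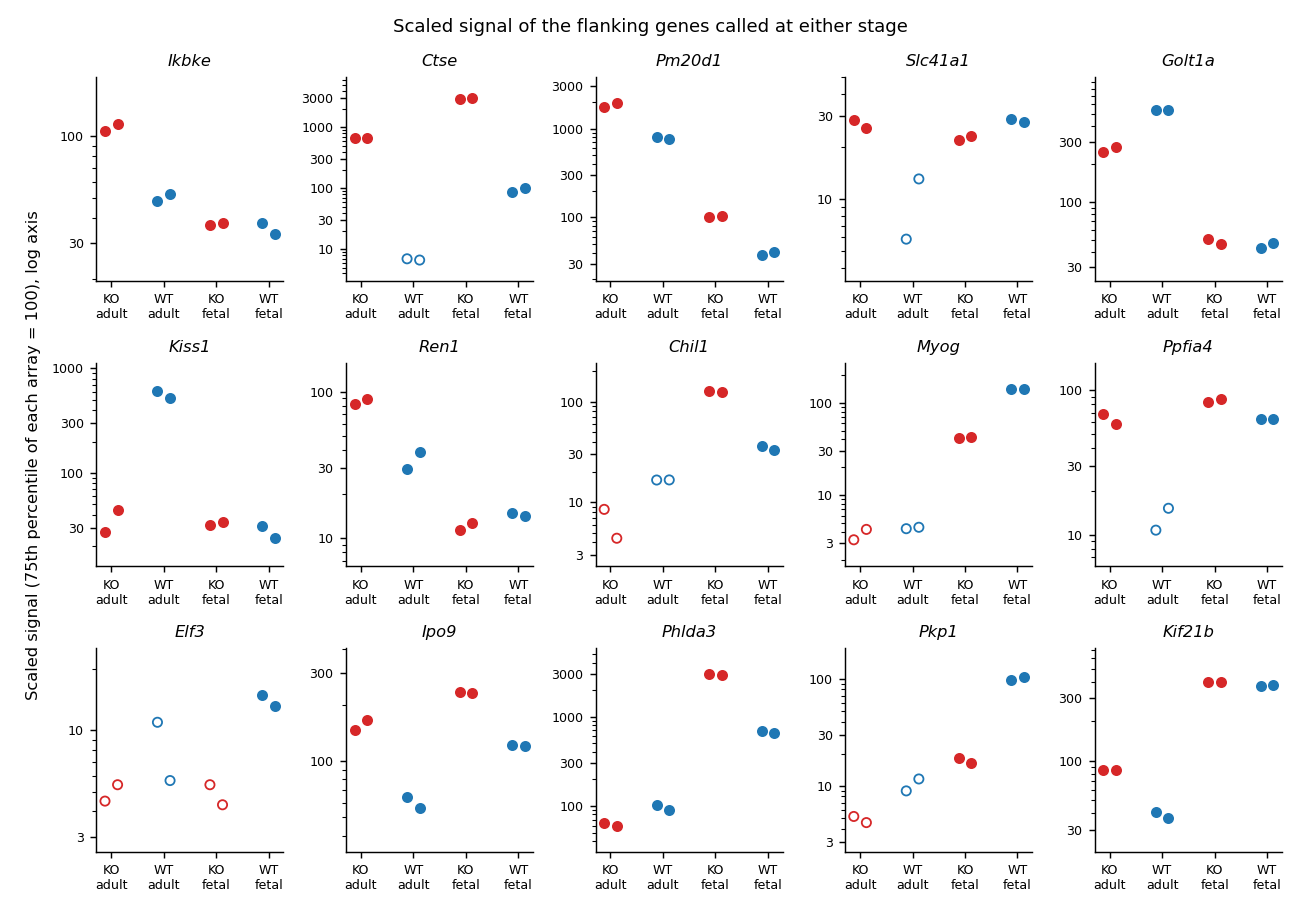
Scaled signal (75th percentile of each array = 100, log axis) of the 15 flanking genes called at either stage, 1 point per array, in adult and fetal KO (red) and WT (blue) liver. Open points mark groups in which neither array was well above background; Ctse and Pm20d1 are higher in KO at both stages, Kiss1 is lower in adult KO than in adult WT, and Phlda3 is higher in fetal KO than in fetal WT.

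Of the kinases, phosphatase subunits and signalling adaptors, 11 of 13 were tested. In adult liver 1 was called (7.50% of all genes) and in fetal liver 1 (1.87% of all genes), both times higher in KO. The medians were -0.33 in adult and 0.07 in fetal liver. Ikbke, an IKK-related kinase of innate immune signalling, read 107 and 115 in adult KO, against 48.3 and 52.4 in adult WT (1.14 ± 0.11, adjusted p = 8.7e-05, limma). The adult groups did not overlap. In fetal liver Ikbke read 36.8 and 37.6 in KO, against 37.5 and 33.4 in WT, and the groups overlapped.

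Phlda3, a target of p53 whose product restrains Akt at the membrane, had the next highest fetal rise after Ctse among these genes. Its fetal scaled signals were 3001 and 2944 in KO, against 684 and 662 in WT (2.14 ± 0.07, adjusted p = 9.5e-06, limma), rank 10 among the fitted rises of all genes. In adult liver it read 63.7 and 59.4 in KO, against 101 and 89.4 in WT. That adult difference had the opposite sign, at -0.63 ± 0.07 (adjusted p = 1.3e-04, limma), and was under 2-fold. Etnk2, an ethanolamine kinase, read 29233 and 29054 in adult KO, against 54807 and 54731 in adult WT (-0.91 ± 0.03). Its fetal scaled signals were 634 and 605 in KO, against 385 and 387 in WT (0.68 ± 0.03). Neither Etnk2 difference reached 2-fold, and a further probe of the gene had the opposite sign in adult liver (1.02).

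Among the 10 transcription, chromatin and RNA factors, all tested, limma called 0 in adult liver (7 had an unadjusted p under 0.05) and 2 in fetal liver, both lower in KO. The medians were -0.44 in adult and 0.02 in fetal liver. Myog encodes myogenin, which drives the differentiation of skeletal muscle. It read 41.0 and 42.4 in fetal KO, against 139 and 141 in fetal WT (-1.75 ± 0.18, adjusted p = 0.0015, limma), without overlap, and was not well above background on any adult array. Of 8 skeletal muscle markers, listed after their values were seen, 3 were lower in fetal KO (Myod1, Chrna1 and Tnnc2), with a list median of -0.78. Myod1 was well above background in fetal WT alone, the group through which it was tested. In fetal KO, Chrna1 was well above background on 1 of 2 arrays. The summed scaled signal of that list was 14699 to 15007 in fetal KO and 8829 to 8917 in fetal WT, most of it from Actc1, an actin that heart muscle also makes. Without Actc1 the sum was 1263 to 1266 in fetal KO and 1950 to 1952 in fetal WT, lower in KO. Their part in the Myog result was not tested.

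Elf3, an epithelial transcription factor of the ETS family, read 5.41 and 4.31 in fetal KO, not well above background, against 14.9 and 13.2 in fetal WT. It was at least 1.89-fold lower in fetal KO (adjusted p = 0.026, limma), a call lost without any 1 of the 4 fetal arrays, after quantile normalization and in the value table (both -1.33) and with normexp (-0.14). The difference without each fetal array in turn was between -1.70 and -1.38. Elf3 was well above background on both arrays in fetal WT alone. It was thus tested only through the group where it was high, and its call depends on that group.

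Genes of adhesion, junctions and the cytoskeleton had 8 of 10 members tested: 3 were called in adult liver (2 higher, 1 lower) and 1 in fetal liver, which was lower. Pkp1 encodes plakophilin 1, a desmosome protein of epidermis. It read 18.3 and 16.6 in fetal KO, against 98.6 and 103 in fetal WT (-2.53 ± 0.19, adjusted p = 4.7e-04, limma). The WT pool was far higher on both arrays. In adult liver Pkp1 read 5.21 and 4.56 in KO, against 9.02 and 11.7 in WT. No adult array was well above background for it, so no adult fold is given. The adult call was also lost after scaling to the median and without the second array of either adult group.

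The list of epidermal markers was made after its values were seen. In the fetal pools 5 of 8 tested were called lower in KO (Krt5, Krt14, Krt15, Krt10 and Col17a1), with a list median of -1.57. Trp63 had the opposite sign (0.17) and was not called. The summed scaled signal of the list was 1480 to 1511 in fetal KO and 3562 to 3601 in fetal WT. Dsg3 was not well above background in either fetal sample. Col17a1 was well above background in fetal WT alone, the group through which it was tested. Lad1, a basement membrane anchor gene of epidermis, was -0.96 ± 0.16 in fetal liver (adjusted p = 0.0071, limma), just under 2-fold. It read 9.53 and 7.05 in fetal KO, well above background on 1 of 2 arrays, against 15.9 and 16.0 in fetal WT. In adult liver Lad1 was brighter, at 129 and 138 in KO against 148 and 146 in WT (-0.14 ± 0.16). The part of epidermal RNA in the Pkp1, Elf3 and Lad1 results was not tested.

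Ppfia4, a liprin scaffold gene, read 68.1 and 58.2 in adult KO, against 10.7 and 15.2 in adult WT, where it was not well above background (at least 3.06-fold higher in KO, adjusted p = 2.8e-05, limma). Its fetal scaled signals were 82.5 and 87.5 in KO, against 63.1 and 63.0 in WT, and were not called. Kif21b, a kinesin motor gene, read 85.1 and 85.5 in adult KO, against 40.9 and 36.6 in adult WT (1.14 ± 0.07, adjusted p = 8.0e-06, limma). In fetal liver Kif21b read 398 and 397 in KO, against 368 and 374 in WT, a difference of 0.10 ± 0.07 that was not called.

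The ion and solute transporters had 3 of 4 members tested, with 1 called in adult liver (higher) and 0 by limma in fetal liver (1 with an unadjusted p under 0.05). Slc41a1, a magnesium transporter, read 28.3 and 25.5 in adult KO, against 5.86 and 13.0 in adult WT, where it was not well above background. It was at least 1.31-fold higher in adult KO (adjusted p = 0.0046, limma). Its fetal scaled signals were 21.8 and 23.0 in KO, against 29.0 and 27.8 in WT, a difference of -0.34 ± 0.34 that was not called.

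The genes of trafficking, mitochondria, ubiquitin transfer and other cell processes had 9 of 11 members tested, with 1 higher and 1 lower in adult KO. In fetal liver limma called 0 of them, and 5 had an unadjusted p under 0.05. Ipo9, which encodes the nuclear import receptor importin 9, read 148 and 167 in adult KO, against 64.4 and 56.3 in adult WT (1.38 ± 0.09, adjusted p = 1.2e-05, limma). Its fetal scaled signals were 236 and 233 in KO, against 122 and 121 in WT. The KO arrays were higher at both stages without overlap, but the fetal difference of 0.95 ± 0.09 (adjusted p = 0.0011, limma) fell short of 2-fold. Golt1a, a Golgi transport gene, read 251 and 274 in adult KO, against 542 and 545 in adult WT (-1.05 ± 0.08, adjusted p = 2.7e-05, limma). The Golt1a call was lost under every other scaling run and with normexp, with differences of -0.94 to -0.85, and without the first adult KO array (-0.99). In fetal liver it read 50.3 and 46.3 in KO, against 42.8 and 47.0 in WT, and the groups overlapped.

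Of the receptors, matrix and secreted lectins, 4 of 7 were tested, and 1 was called in each comparison. Chil1 encodes a secreted chitinase-like lectin and is the first tested gene after Btg2. Its fetal scaled signals were 128 and 125 in KO, against 36.6 and 33.4 in WT (1.86 ± 0.28, adjusted p = 0.0058, limma), higher in KO without overlap. In adult liver it read 8.50 and 4.39 in KO, against 16.6 and 16.7 in WT. None of these 4 arrays was well above background, so the adult call rests on signals for which no fold is given, and it was lost without the second adult KO array.

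Markers of other cells moved with genotype in the adult samples, where 8 of the flanking genes were higher in KO. All 13 macrophage and Kupffer cell markers tested were higher in adult KO (list median 2.44), with a summed scaled signal of 43726 to 45065 in KO and 7713 to 8257 in WT. Of these markers, Timd4 and Cd163 were not well above background in adult WT. Cd163 was well above background in adult KO alone, the group through which it was tested. In fetal liver limma called 0 of the 13, and 7 had an unadjusted p under 0.05. Intestinal epithelial markers were mixed in adult KO (4 higher and 2 lower of 8 tested). The 4 higher (Vil1, Reg3b, Muc13 and Krt20) were not well above background in adult WT. Reg3b was tested through adult KO alone. The summed scaled signal of that list was lower, at 11092 to 11337 in adult KO and 28455 to 29110 in adult WT, most of it from Fabp2. Without Fabp2 it was 1048 to 1100 in adult KO and 1996 to 2146 in adult WT. Among 6 stellate cell and fibroblast markers, 3 were higher in adult KO. The summed scaled signal of those 6 was lower, at 10771 to 11330 in adult KO and 13558 to 13984 in adult WT. Most of it came from Dcn (-0.41, not called). Without Dcn the sum was 1063 to 1092 in adult KO and 521 to 532 in adult WT, higher in KO. Hepatocyte markers had 0 of 8 called by limma at either stage, with 7 in adult and 4 in fetal liver at an unadjusted p under 0.05. The part of these cells in the rises of Ikbke, Slc41a1, Ppfia4, Ipo9, Kif21b, Ren1, Pm20d1 and Ctse was not tested.

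Across the 2 stages, 3 flanking genes were called in the same direction: Ctse and Pm20d1, higher in KO, and Pkp1, lower in KO. They made up 25% of the 12 adult calls and 42.9% of the 7 fetal calls. Over all genes tested, 18 were called in the same direction at both stages (0.123%), which was 1.65% of the adult and 6.62% of the fetal calls. The adult and fetal comparisons share no array. For Pkp1 no adult array was above background, and scaling to the median left Ctse and Pm20d1. Chil1 was the 1 flanking gene called in opposite directions (17 of all genes, 0.117%).

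With the 2-fold condition dropped, 30 of the 50 genes passed the adjusted p in adult liver (54.6% of all genes did) and 20 in fetal liver (18.7% of all genes). Both stages were passed in the same direction by 8 genes (4.20% of all genes): Ctse, Pm20d1, Cdk18, Zc3h11a, Timm17a, Ipo9, Csrp1 and Pkp1. Timm17a, a subunit of the mitochondrial protein import channel, was -0.76 ± 0.03 in adult and -0.47 ± 0.03 in fetal liver. A further 6 of the 50 genes passed at both stages with opposite signs (Etnk2, Sox13, Chil1, Arl8a, Rnpep and Phlda3). Over all 14578 genes tested, 1316 did so.

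**Figure D3:**
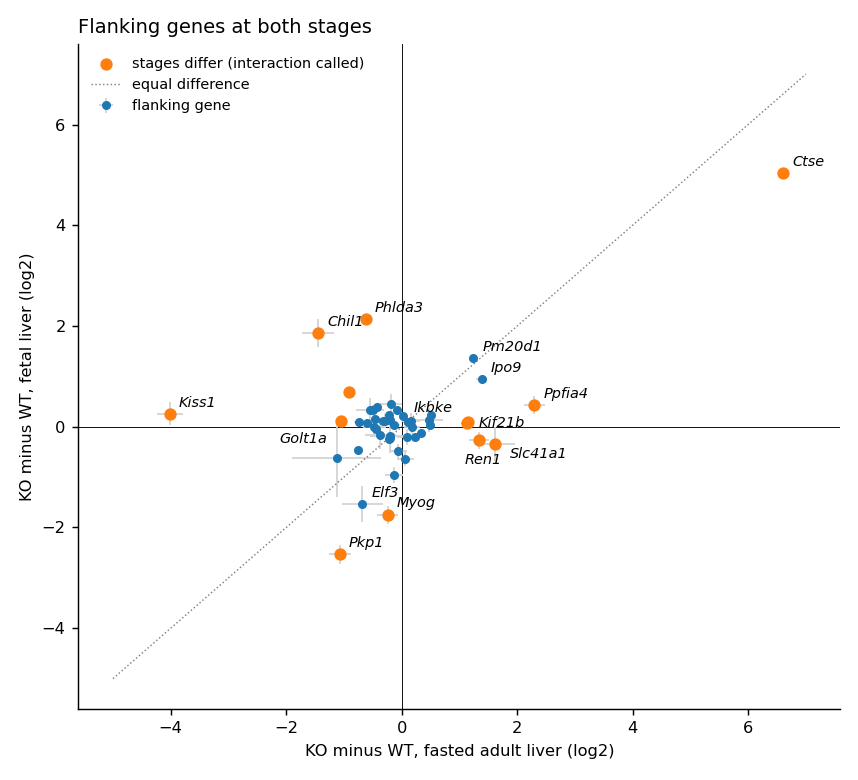
KO minus WT difference of each of the 50 flanking genes tested in fasted adult liver (horizontal, log2) and in fetal liver (vertical, log2), with SE bars; the dotted line marks equal differences and orange points the 13 genes called between the stages. Ctse and Pm20d1 lie in the upper right, Kiss1 far to the left near a fetal difference of 0.26, and Phlda3 in the upper left. Points are fitted values. The adult positions of Ctse, Slc41a1, Ppfia4, Chil1, Pkp1, Myog and Elf3 rest on at least 1 group not well above background. The same holds for the adult positions of Tmcc2, Nfasc, Lrrn2, Ppp1r12b, Ube2t and Ptpn7, called at neither stage, and for the fetal position of Elf3.

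The difference between the stages was itself called for 13 of the 50 genes (26%), against 9.72% of all genes. In 7 of the 13 every group was above background on both arrays, and among these the difference was largest in size for Kiss1 and Phlda3. Between the WT samples alone, 32 of the 50 genes (64%) were called, with 12 higher (27.0% of all genes) and 20 lower in adult than in fetal liver (28.1% of all genes). For all genes tested that share was 55.0%.

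Distance from Btg2 in gene order was set against the calls of all protein-coding genes of the stretch, listed or not. Among the 10 protein-coding genes nearest to Btg2 on each side, 16 were tested and 2 were called at each stage (12.5%). In the next 20 on each side 32 were tested, with 4 called in adult (12.5%) and 2 in fetal liver (6.25%). In the outer rest of the stretch 17 were tested, with 7 called in adult (41.2%) and 3 in fetal liver (17.6%), and all 3 genes called alike at both stages lay there. The median size of the difference, regardless of sign, was 0.36 in adult and 0.36 in fetal liver for the nearest block, 0.46 and 0.21 for the next, and 0.60 and 0.20 for the outer one. Of the listed genes alone, 27 were tested before Btg2, with 5 higher and 2 lower in adult KO and 2 higher in fetal KO. After Btg2, 23 of the listed genes were tested, with 3 higher and 2 lower in adult KO and 2 higher and 3 lower in fetal KO. Over all genes tested, 4.97% were called higher and 2.53% lower in adult KO, and 0.453% higher and 1.41% lower in fetal KO.

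Of the listed genes that were tested, the 3 nearest to Btg2 on each side were Zc3h11a, Atp2b4 and Fmod before it and Chil1, Adora1 and Myog after it, and 4 of these 6 were called at neither stage. Genes outside the list also lie among them. Before it, Fmod, a collagen-binding proteoglycan gene, had an adult difference of 0.18 ± 0.14 and a fetal one of -0.0047 ± 0.14. Atp2b4, a calcium pump of the plasma membrane, had -0.18 ± 0.19 in the adult and 0.46 ± 0.19 in the fetal comparison. Zc3h11a, a zinc finger protein of mRNA export, differed by -0.23 ± 0.03 and -0.24 ± 0.03, under 2-fold at both stages. After Btg2, Adora1, the adenosine A1 receptor, had -0.55 ± 0.24 in the adult and 0.34 ± 0.24 in the fetal comparison, beside the fetal calls of Chil1 and Myog.

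Beyond the stretch, calls went on in the adult comparison. Of the next 40 genes before it 27 were tested, with 5 called in adult (18.5%) and 2 in fetal liver (7.41%). Of the next 40 after it 24 were tested, with 4 called in adult (16.7%) and 1 in fetal liver (4.17%). On the whole of chromosome 1 outside the stretch, these blocks included, 734 genes were tested, with 72 called in adult (9.81%), 22 in fetal liver (3%) and 0 alike at both stages. On the other chromosomes 13471 were tested, with 984 called in adult (7.3%), 234 in fetal liver (1.74%) and 13 alike at both stages. Of the 15 genes tested inside the stretch that are not among the 60, 1 was called in adult liver and 0 by limma in fetal liver (4 with an unadjusted p under 0.05). That gene was Cacna1s, a calcium channel of skeletal muscle. It read 50.9 and 48.1 in adult KO, against 12.6 and 9.34 in adult WT, where it was not well above background (at least 2.40-fold higher in KO, adjusted p = 3.6e-05, limma). These shares describe the gene order and were not tested against each other.

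**Figure D4:**
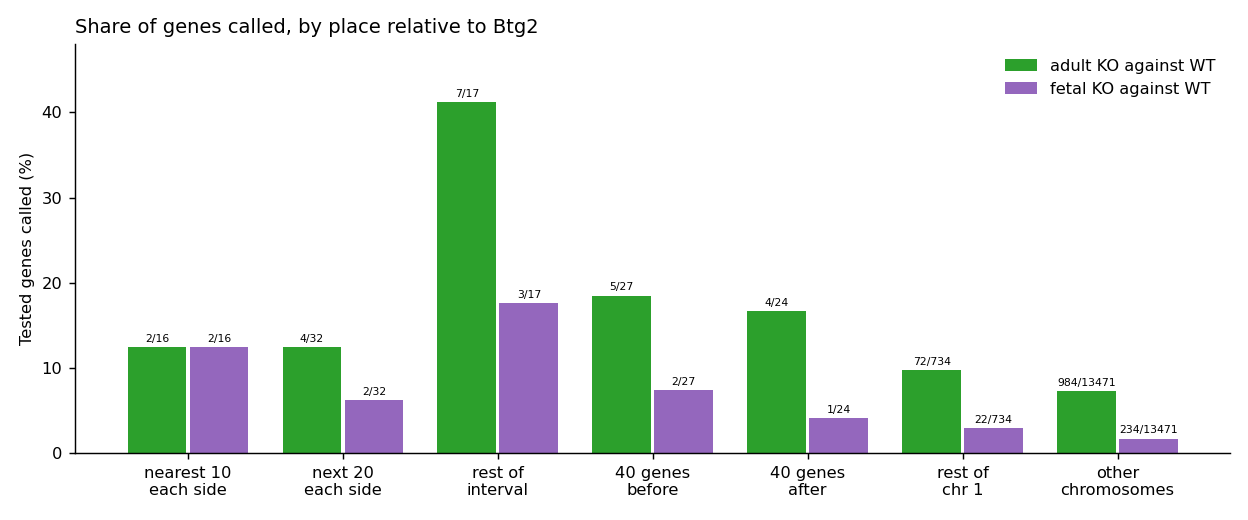
Share of tested genes called between KO and WT (bars from 0, in percent; called over tested above each bar) by place relative to Btg2, in fasted adult and fetal liver. The outer rest of the stretch has the highest share at both stages, 41.2% in adult and 17.6% in fetal liver, and the 10 genes nearest on each side have 12.5% at both.

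The remaining 35 genes tested were called at neither stage. Their differences lay between -1.13 and 0.51 in adult liver and between -0.96 and 0.68 in fetal liver. The lowest adult value, of Ppp1r12b, had an SE of 0.77 and did not pass the test (adjusted p = 0.26, limma). Another 8 genes had a probe but were too dim to be tested, since in no group did both arrays exceed background. Of these, Slc26a9, Cntn2, Lgr6 and Lmod1 were above background on no array, and Klhdc8a, Pik3c2b, Lax1 and Chit1 on 1 array of a group or of 2 groups. Of the 19 genes with several probes, 6 had probes of opposite sign in adult liver (Atp2b4, Etnk2, Nav1, Plekha6, Ptpn7 and Srgap2). In fetal liver there were also 6 (Cyb5r1, Kiss1, Mdm4, Plekha6, Snrpe and Zc3h11a).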

How the data were processed

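Per the file headers, the deposited scanner output held processed, median and background signals of each spot as intensity on a linear scale, made with Agilent Feature Extraction 10.7.3.1 from 8 one-colour arrays of 1 slide and 1 scan. Per the labels' protocols, 200 ng of Trizol-extracted RNA was labelled with Cy3. The deposited value table also held linear intensity, with columns of nearly equal medians (18.1 each). It correlated with the processed signals at r of 0.995 to 0.999 on the log2 scale, was not centred on genes, and ran in the same direction, but its normalization by the authors is not stated in these sources, and it served as an alternative.

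Control spots and spots with an outlier flag were left out (92 to 188 flagged spots per array), and no spot was saturated. The value was log2 of the processed signal minus the array's 75th percentile, with the spots of a probe averaged. Probes were named through unversioned RefSeq accessions (26762 of 55681 matched; GRCm38.p6, used for names, gene order and promoters), and the array design names build mm9. To be tested, a probe had to be well above background in some group on each of its arrays, and the brightest such probe stood for a gene (14578 of 20284 genes). The number of arrays limits the precision. R 4.3.3 and limma 3.58.1 fitted all 8 arrays as 4 groups (lmFit, eBayes with trend; Benjamini-Hochberg over all genes tested). Where neither array of 1 group was well above background, the other group was set against the mean, per array, of whichever was higher, its own signal or the dimmest one of any probe well above background ("at least N-fold").

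The members, role groups and marker lists were chosen with earlier results of these data known, the skeletal muscle and epidermis lists after their values were seen. Named are members called in a knockout comparison or between stages, the 3 tested members nearest to Btg2 on each side, Btg2, Ren2 and other called genes of the stretch. Others named (Rnpep, Timm17a, Lad1 and Ppp1r12b, and names in counts) were chosen after their values were seen. Alternatives changed the scaling, background correction, source, filters, probe choice, variance model, arrays and fold threshold. Fetal hepatoblast, erythroid and B cell markers had 0 calls at either stage (unadjusted p under 0.05: 2, 4 and 1 in adult, 1, 4 and 1 in fetal liver). T and NK cell markers had 1 higher of 4 in adult, cholangiocyte markers 1 higher in adult and 1 lower in fetal of 4, and neuron markers 1 lower in fetal of 4. The fit was tested on simulated data.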

Additional observations from a re-analysis of the deposited data

Results flagged for a closer look

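For 13 of the flanking genes the KO minus WT difference itself differed between fasted adult and fetal liver by the interaction term of the limma fit (adult minus fetal, log2). Because stage goes with fasting, sex and pooling of fetuses, these cannot be told apart.

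Among genes measured in all 4 groups, the adult difference lay above the fetal one for Ren1 (1.61 ± 0.24, adjusted p = 0.0012), Ikbke (1.07 ± 0.15, adjusted p = 9.4e-04) and Kif21b (1.04 ± 0.10, adjusted p = 1.0e-04). It lay below the fetal one for Kiss1 (-4.27 ± 0.32, adjusted p = 4.4e-05), Phlda3 (-2.77 ± 0.09, adjusted p = 1.5e-06), Etnk2 (-1.59 ± 0.04, adjusted p = 7.3e-07) and Golt1a (-1.16 ± 0.11, adjusted p = 1.4e-04). The Ikbke value was 0.98 without the first fetal WT array and the Kif21b value 0.96 without the second adult WT array, each under 2-fold. For Etnk2 the mean of its probes gave -0.41. The Golt1a call between the stages was lost with median scaling (-0.998) and with the 75th percentile of probes detected on all arrays (-0.996). With median scaling the Ikbke (1.23) and Kif21b (1.20) calls were also lost. Normexp lost the calls of Golt1a (-0.92), Ikbke (0.56), Kif21b (0.46) and Ren1 (0.67).

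In the other 6, at least 1 group was not well above background. Their fitted values were 1.96 for Slc41a1, 1.87 for Ppfia4, 1.58 for Ctse, 1.51 for Myog, 1.46 for Pkp1 and -3.30 for Chil1. These are not measured sizes. In adult liver Ctse, Slc41a1 and Ppfia4 have only a bound (at least 32.3-fold, 1.31-fold and 3.06-fold higher in KO), and Myog, Pkp1 and Chil1 were not well above background in either genotype. How far their adult and fetal differences lie apart is therefore not settled.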

How the results depend on the processing

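With normexp background correction, 3 members were called in adult liver (2 higher, 1 lower) and 7 between the stages, and the Ctse interaction was reversed to -1.11. Over all genes that setting called 355 in adult and 67 in fetal liver, against 1093 and 272. It adds an offset of 50 to every signal, which by construction draws dim signals together. Among genes above background on all 8 arrays, 35 members were left, with 7 called in adult and 2 in fetal liver, 7 between the stages and 1 (Pm20d1) at both stages (all genes: 502 and 26, and 687 between the stages). With no fold threshold there were 30, 20, 32 and 8 (all genes: 7955, 2728 and 7359). Unnamed probes, when kept, raised the count over all genes to 1714 in adult liver and 2339 between the stages, against 1417; normexp gave 473. A 2-fold difference with no test gave 411 in fetal liver. The adult median over the members was 0.0013 with median scaling, -0.059 with the detected-probe percentile, -0.050 after quantile normalization, -0.050 in the value table and -0.13 with normexp. The fetal median was 0.13, 0.067, 0.075, 0.076 and 0.073 under these, and 0.10 among genes above background on all 8 arrays. These scalings moved the adult median of all genes by 0.12 to 0.20, and by 0.03 with normexp. Leaving out 1 array gave 10 to 13 adult calls, 6 to 7 fetal calls, 12 to 14 between the stages, 2 to 3 at both stages, and medians of -0.20 to -0.15 in adult and 0.067 to 0.089 in fetal liver. Without the second fetal KO array, 178 genes were called in fetal liver. With the row of the slide as a replicate block, 12, 7, 13 and 3 members were called, and no member's call changed; within rows 1 and 2 of the slide, 10 and 10 of the 12 adult calls and 7 and 7 of the 7 fetal calls were past 2-fold in the same direction. The block is a position on the slide shared by technical duplicates, not a pairing of animals. The cause of the other changes was not tested. Signal over background limits Ctse, Slc41a1, Ppfia4 and Elf3 to bounds.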
